A study of Drosophila melanogaster with 2 samples.

Results

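Eip74EF (FBgn0000567) is a Drosophila gene of 60654 bp on 3L, at 17558672 to 17619325 of the dm6 assembly on the minus strand, and 24 peaks of the CG32121-eGFP fusion protein were assigned to it out of 7676 in the series. The peaks were chosen by position from the authors' conservative list of peaks: every peak whose summit, its point of highest signal, fell in the gene body or 1 kb upstream. The presence and position of these peaks are therefore a description and carry no test. The gene itself was chosen with results of the same list in view.

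The data were from chromatin immunoprecipitation with sequencing (ChIP-seq) of whole pupae aged 2 days that carried a CG32121-eGFP transgene, with an antibody against the green fluorescent protein tag. There was 1 group of 2 biological replicates, both of the same genotype. Neither input nor untagged animals enter the comparisons. The labels name neither the promoter that drives the fusion gene nor the number of animals, and in whole animals the tissues that gave the signal cannot be told apart. The numbers of reads are unknown. Peak signal is the authors' value per peak, whose scale the labels do not state. It served to describe and rank peaks.

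Eip74EF belongs to the first genes that the steroid hormone ecdysone switches on at the onset of metamorphosis, and it is known from one of the early puffs of the larval salivary gland chromosomes. It encodes transcription factors with an ETS domain, a DNA-binding fold shared by a family of regulators. A far promoter makes the long transcripts of the E74A protein and internal promoters make the short transcripts of E74B. Both proteins share the C-terminal part with the ETS domain and differ at the N terminus. E74B is known to respond to lower ecdysone levels than E74A, and E74A activates late genes such as the Eig71E cluster.

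The annotation held 5 transcripts from 3 start sites. RA, RC and RE, with 8 exons and products of 829, 868 and 844 amino acids, began at 17619325. RB and RD, with 4 exons and a product of 883 amino acids, began 42699 bp and 43005 bp further downstream, at 17576626 and 17576320. The short transcripts began, and had their first exon, inside intron 5 of the long ones, which was 31734 bp long. They then ran on through exons 6 to 8 of the long transcripts, with RD ending further downstream than the others.

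The sequences at 5 of the strongest peaks show what lay under the highest signals, and how unlike each other they were. Each is the 101-base window around a summit, read from the RefSeq copy of Release 6 in the direction of transcription (minus strand), 5′ to 3′. Peaks are numbered 1 to 24 along the direction of transcription. Capitals mark any of 15 short motifs searched on both strands, which in these windows were ACAGTG at peaks 23 and 1, CAGGTA at peak 23, GAGAG at peak 1 and AAAATA at peak 4, or their reverse complements.
Peak 23, chr3L:17566964-17567064: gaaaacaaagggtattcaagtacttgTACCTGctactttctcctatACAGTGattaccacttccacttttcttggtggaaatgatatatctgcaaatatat
Peak 17, chr3L:17586507-17586607: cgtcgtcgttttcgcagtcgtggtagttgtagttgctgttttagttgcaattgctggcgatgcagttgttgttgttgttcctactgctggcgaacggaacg
Peak 1, chr3L:17619453-17619553: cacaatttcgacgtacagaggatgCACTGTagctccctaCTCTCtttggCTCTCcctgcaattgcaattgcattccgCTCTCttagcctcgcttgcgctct
Peak 22, chr3L:17572216-17572316: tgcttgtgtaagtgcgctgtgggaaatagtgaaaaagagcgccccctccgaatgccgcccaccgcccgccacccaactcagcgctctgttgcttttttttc
Peak 4, chr3L:17611341-17611441: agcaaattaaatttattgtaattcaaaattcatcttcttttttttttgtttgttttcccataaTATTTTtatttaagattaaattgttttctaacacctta

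Peaks 17 and 22 held none of the motifs, and peak 4 was an AT-rich stretch with 17.8% GC, the lowest among the 24 windows. Peak 1, upstream of the E74A start, held GAGAG in its reverse form at several places. GAGAG is the core recognised by the GAGA factor, a protein of promoter chromatin. A match is only a stretch of letters and was not read as a binding site.

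All 3 annotated start sites had a summit within 500 bp, against 20.3% of the start sites of protein-coding genes in the genome. Since the starts of RB and RD are 306 bp apart, 1 peak served both. Peak 1 stood 178 bp upstream of the E74A start, at 17619305 to 17619700, with a signal of 195.98 in the series, 59.1 in replicate 1 and 127.7 in replicate 2. It was present in the thresholded lists of both replicates and ranked 1836 among the 7676 peaks.

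Peak 20 lay at 17576320 to 17576715, with its summit 108 bp downstream of the RB start and 198 bp upstream of the RD start. Its signal was 119.96 in the series, 39.1 in replicate 1 and 64.6 in replicate 2. The E74B starts thus had the lower signal in the series and in both replicates. Peak 20 overlapped no peak of replicate 1's own list. In replicate 2's own list the overlapping peak had its summit 230 bp upstream of the RB start, with a signal of 53.0. The other thresholded list of the series held a further peak there, 195 bp upstream of the RB start, with a signal of 73.97. The ranked list of each replicate, before thresholding, had a summit within 71 bp of that of peak 20, so the lists placed signal on both sides of the RB start.

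**Figure D1:**
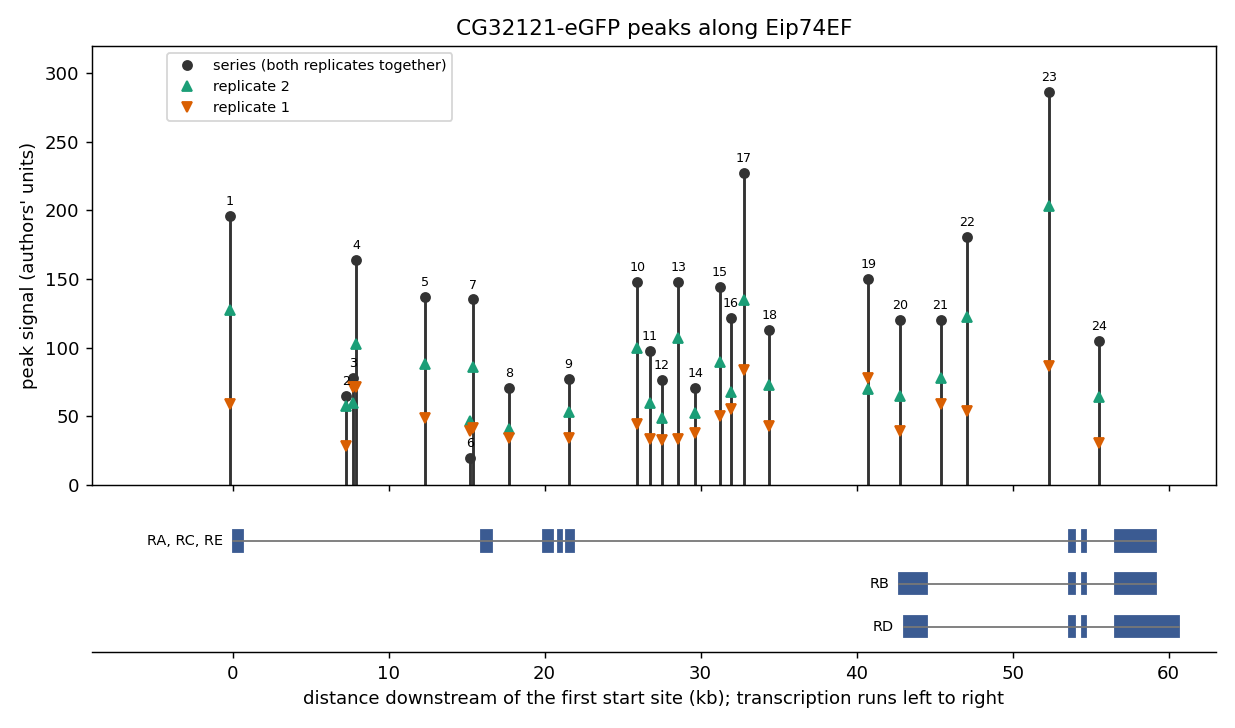
Peak signal in the authors' units (vertical axis) against distance downstream of the E74A start site in kb (horizontal axis) for the 24 peaks, with the exons of the transcripts below; black circles are the series, green triangles replicate 2 and orange triangles replicate 1. Peak 1 stands at the first start and peak 20 at the internal starts, peaks 10 to 18 form a run before the internal starts, and peak 23 is the highest at 286.6.

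Most of the peaks lay in introns, as did most of the sequence. Of the 24 peaks, 21 (87.5%) had a summit in introns more than 500 bp from any start, 2 were at starts and 1 was in a coding exon. Introns of the long transcripts made up 86.2% of the gene and its upstream 1 kb. The 2 shares were close, though that of the sequence includes the stretch around the internal starts, where peak 20 lay. Peaks that overlapped by at least 1 bp merged into 22 separate regions, which covered 9000 bp, or 14.6%, of the gene and its upstream 1 kb. Neighbouring summits were 200 to 7443 bp apart, with a median of 1685 bp. The longest stretch without a summit ran from the E74A start into intron 1.

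Intron 1 of the long transcripts held 6 peaks in 4 regions with signals of 19.4 to 163.8. The highest was peak 4, 7934 bp downstream of the start, with 71.3 in replicate 1 and 102.4 in replicate 2. Peak 3, with a summit 201 bp from that of peak 4, overlapped it and was matched to the same replicate 1 summit. Peaks 6 and 7 also overlapped, with summits 200 bp apart and signals of 19.4 and 135.1, but were matched to different replicate summits. Peak 6 had the lowest signal of the gene and passed the authors' threshold with a global irreproducible discovery rate (IDR, the estimated share of irreproducible peaks) of 0.00417. Its signals in the ranked lists of replicates 1 and 2, before thresholding, were 39.2 and 46.6. In their thresholded lists it overlapped only the peaks matched to peak 7, with signals of 40.9 and 86.0.

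Intron 5 held 14 peaks, each a region of its own, or 4.41 per 10 kb. Intron 1 had 3.93 peaks and 2.62 regions per 10 kb, since pairs of its peaks overlapped, and the shorter introns 2 and 7 had 1 peak each. Of the 14 peaks of intron 5, 10 lay before the E74B starts, 1 at the starts and 3 after the first exon of the short transcripts. Peaks 10 to 18 followed each other at gaps of 737 to 1639 bp over 8475 bp, from 16767 to 8292 bp upstream of the RB start. This run was picked out after the values were seen. Its signals ranged from 70.6 to 227.5, with a median of 121.4, and its highest member was peak 17, with 83.8 in replicate 1 and 134.7 in replicate 2. Of the 9 peaks, 4 overlapped replicate 1's own list and 8 overlapped replicate 2's. Peak 19, 1942 bp upstream of the RB start, had a signal of 150.1, with 77.8 in replicate 1 and 69.997 in replicate 2.

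The stretch transcribed in both the E74A and E74B units held the strongest peak of the gene. Peak 23, at 17566892 to 17567174 in intron 1 of RB and RD and intron 5 of the long transcripts, was 9306 bp downstream of the RD start. Its signal was 286.6 in the series, 86.7 in replicate 1 and 203.4 in replicate 2, each the highest value among the 24 peaks. With 283 bp it was also the only peak of the gene that was not 396 bp wide, a width that was also the median of all peaks. Peak 22, 4054 bp downstream of the RD start, followed with 180.5, 53.4 and 122.6 in the series and replicates 1 and 2. Peak 21 had 119.9 in the series, 58.5 in replicate 1 and 78.0 in replicate 2. Peak 24, in intron 7 of the long transcripts had 104.5, 30.4 and 63.8.

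The 2 peaks between intron 1 and intron 5 were low. Peak 9, in coding exon 5 of the long transcripts, had signals of 77.1, 33.8 and 53.3 in the series and replicates 1 and 2. Peak 8, in intron 2, had 70.7, 33.9 and 40.6. Both overlapped no peak of either replicate's own list. Peak 8 was also the member closest to the authors' limit, with a global IDR of 0.00857 against a limit of 0.01. The strongest candidate just outside the limit, at 17570002 to 17570397 between peaks 22 and 23, had a signal of 100.7 and a global IDR of 0.0114. It was in replicate 2's own list with a signal of 78.9 and in the other thresholded list of the series.

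The peaks of Eip74EF were many but not high. Their median signal was 120.7 (quartiles 77.6 and 148.3), and that of all 7676 peaks was 121.5 (quartiles 88.5 and 190.6). Of the 24, 3 lay above the upper quartile of all peaks and 7 below the lower quartile. The highest, peak 23, ranked 982. The ranked list of the series held a further 48 candidate peaks in the locus that overlapped no conservative peak and whose global IDR was above the limit, with signals of up to 100.7 and a median of 31.1.

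Each replicate had a summit within 200 bp of all 24 peaks in its ranked list. Of all 7676 conservative peaks, 7322 were matched in both replicates. The scales of the replicates' signals are not stated, so the ratio between replicates is read only beside that of all peaks. Replicate 1's signals had a median of 43.5 and replicate 2's one of 71.3. Replicate 2 was higher at 22 of the 24 peaks (91.7%), beside 96.1% of the 7322 peaks matched in both replicates. The median ratio was 1.67 (quartiles 1.38 and 2.10), beside 1.72 over those 7322 peaks. The exceptions were peak 3, with a ratio of 0.838, and peak 19, with 0.90. The replicate 1 summit matched to peak 3 was 160 bp away and was also the match of peak 4, 41 bp from it. The ratio of peak 3 therefore does not show a higher signal in replicate 1. At peak 19 the matched summits lay on opposite sides of its own, 97 bp away in replicate 1 and 56 bp away in replicate 2. Its ratio thus also compares separate summits. The largest ratio was 3.21 at peak 13, with 33.3 in replicate 1 and 106.9 in replicate 2. Across the 24 peaks the replicate signals had a Spearman rho of 0.64, and across the 7322 peaks it was 0.78. This is a description over peaks of the same 2 libraries, all of which had passed a limit that asks for agreement between replicates.

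**Figure D2:**
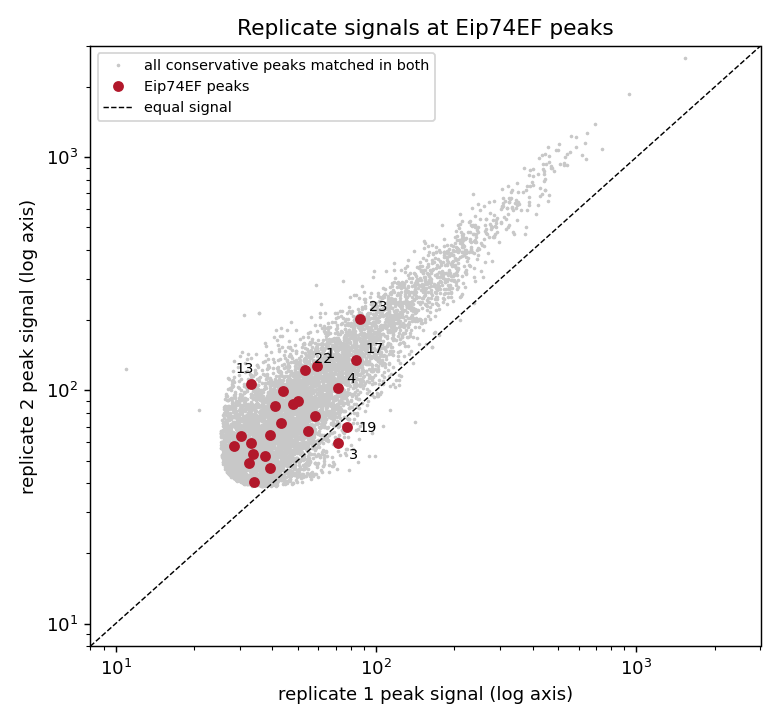
Signal in replicate 1 (horizontal axis) against replicate 2 (vertical axis), both on log axes in the authors' units, for the 24 peaks of Eip74EF (red, some numbered) over all conservative peaks matched in both replicates (grey); the dashed line marks equal signal. Of the red points 22 lie above the line, and peaks 3 and 19 lie below it.

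In the replicates' own thresholded lists, 14 of the 24 peaks (58.3%) overlapped a peak of replicate 1, against 55.1% of all conservative peaks. For replicate 2 the count was 20 of 24 (83.3%), against 77.5% of all peaks. These shares are close to those of the whole series and say nothing particular about the gene. The 14 peaks of replicate 1 were also in replicate 2's list, 6 were in replicate 2's list alone (peaks 12, 13, 14, 18, 20 and 24), and 4 were in neither (peaks 2, 8, 9 and 11). Thus 58.3% of the 24 were in both lists, beside 50.6% of all conservative peaks, of which 1381 of 7676 were in neither. Peak 11 had the highest series signal of the 4 in neither list, 97.7, with 33.0 in replicate 1 and 59.5 in replicate 2. Peak 2 had 64.5, 28.4 and 57.5. Among the peaks in replicate 2's list alone, peaks 12, 14 and 18 had series signals of 76.3, 70.6 and 112.9.

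Sequence was not used in choosing the peaks, so the letters at the summits are a separate property. Within 50 bp of the summit the 24 windows had a mean GC content of 47.5%, from 17.8% at peak 4 to 69.3% at peak 9. The mean was 37.9% over all conservative peaks. It was 39.6% in the 3642 other peaks whose signals lay between the quartiles of the Eip74EF peaks, and 39.997% in 499 windows of the same length in the gene outside its peaks. The windows at peaks of Eip75B and Hr4, a pair of ecdysone-induced nuclear receptor genes, had means of 43.8% (30 peaks) and 43.5% (24 peaks).

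**Figure D3:**
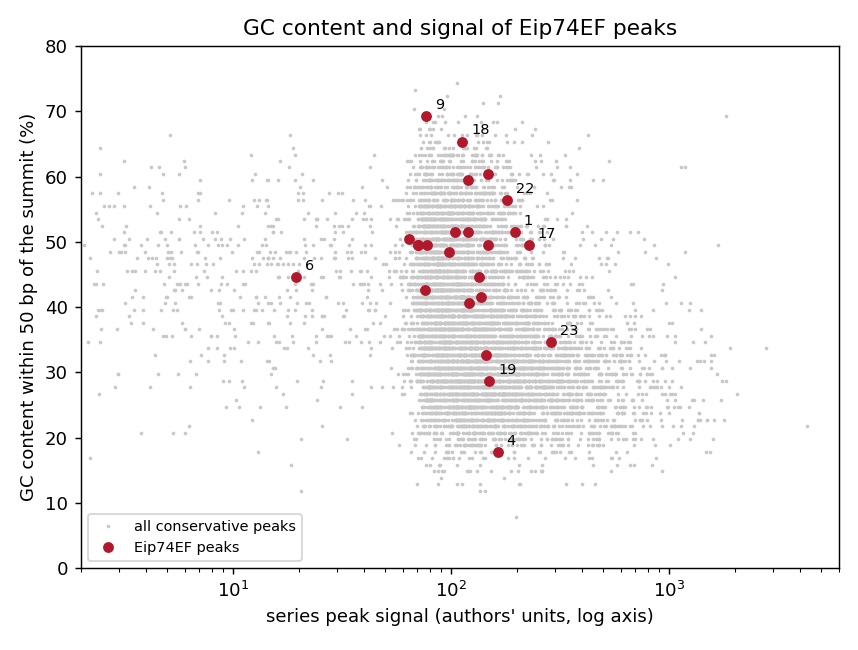
GC content within 50 bp of the summit in percent (vertical axis) against series signal in the authors' units on a log axis (horizontal axis) for the 24 peaks of Eip74EF (red, some numbered) and all conservative peaks (grey). The red points run from 17.8% GC at peak 4 to 69.3% at peak 9. Their signals run from 19.4 to 286.6, beside 2.06 to 4291.3 over all conservative peaks.

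The motif of the list found in the most Eip74EF windows was ACAGTG, present at 8 of 24 summits (33.3%). It was at 476 of all 7676 summits (6.20%), at 244 of the 3642 other peaks of like signal (6.70%), and in 12 of the 499 windows of the gene outside its peaks (2.40%). None of the 30 Eip75B windows and none of the 24 Hr4 windows held it. ACAGTG entered the search because earlier results of these data had shown it, and its share at the Eip74EF peaks was not tested. In windows of 100 bp each side the count stayed at 8 of 24, against 16.1% of all peaks. The matches are printed below with 15 bases on each side, each 5′ to 3′ on the strand that reads ACAGTG, with the motif in capitals, to show what the flanks share.
Peak 1, chr3L:17619509-17619544, plus strand: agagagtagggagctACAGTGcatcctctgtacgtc
Peak 2, chr3L:17612053-17612088, minus strand: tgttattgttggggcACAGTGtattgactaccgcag
Peak 3, chr3L:17611597-17611632, minus strand: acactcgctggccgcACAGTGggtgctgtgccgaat
Peak 6, chr3L:17604114-17604149, minus strand: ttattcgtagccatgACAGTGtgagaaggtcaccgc
Peak 10, chr3L:17593367-17593402, plus strand: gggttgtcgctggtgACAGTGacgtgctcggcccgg
Peak 13, chr3L:17590760-17590795, minus strand: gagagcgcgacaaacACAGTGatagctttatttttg
Peak 15, chr3L:17588138-17588173, plus strand: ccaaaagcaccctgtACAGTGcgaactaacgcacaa
Peak 23, chr3L:17566998-17567033, minus strand: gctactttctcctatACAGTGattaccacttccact

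The motif's centre was 1.5 to 42.5 bp from the summit, with a median of 23 bp, and was closest at peak 23, the strongest of the gene. Of the 8 matches, 5 were on the strand of the gene. In the 5 bases on each side of the motif, no position had the same base in more than 5 of the 8 sequences. The 8 peaks with ACAGTG had a median signal of 146.0 (19.4 to 286.6) and the 16 without it one of 119.9 (70.6 to 227.5), so the ranges overlapped widely. The 8 included peak 1 at the E74A start, 3 peaks of intron 1 and 3 peaks of the run in intron 5.

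Other motifs were less frequent or closer to their share in the series. GAGAG occurred at 5 of 24 summits (20.8%, against 14.6% of all) and the CA repeat CACACAC at 4 (16.7%, against 4.78%). The CACACAC windows of peaks 5 and 16 were 86.1% and 58.4% soft-masked, that is, marked as repeat sequence in the genome copy. Those of peaks 13 and 20 were each 25.7% soft-masked. The mean soft-masked share was 30.3% over the 24 windows, beside 23.2% over all conservative peaks. AAAATA was at 5 (20.8%, against 32.0%) and the TATA box TATAAA at 1 (4.17%, against 17.7%). The ETS core CCGGAA, of the kind that E74 proteins themselves recognise, was at 1 summit, peak 9, against 1.56% of all. The nuclear receptor core site AGGTCA was also at 1, peak 6, against 1.75%. The E-box CAGCTG and the Pleiohomeotic core GCCAT were at 2 each, against 3.95% and 13.9%. The GATA factor site AGATAA was at 1 summit, against 6.85% of all. The core of the insulator protein BEAF-32, CGATA, was at 1, against 11.3%, and the Zelda site CAGGTA at 1, against 1.49%. TATCGATA was at none, with 0.638% of all summits, as were GGTCACAC, with 0.547%, and the AP-1 site TGACTCA, with 0.977%. A match to TATCGATA is also a match to CGATA, and other motifs were counted whether or not they shared bases. No motif of the list was found at 6 of the 24 summits. The share of all summits without any of them was not counted, so this number has nothing to be read beside.

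Eip74EF was then set beside other genes by the number of separate regions per 10 kb of gene and upstream 1 kb. It had 3.57, and the median of the 1013 protein-coding genes of at least 20 kb was 0.416. This placed it in position 7, and in position 1 among the 225 genes at least as long as itself in this list. With replicate 1's own list it had 13 regions (2.11 per 10 kb, position 12), and with replicate 2's own list 19 (3.08 per 10 kb, position 11). At a global IDR of at most 0.001 it had 13 regions and position 15. The medians of the long genes under these were 0.201, 0.371 and 0.185 per 10 kb. Nearest to it were gce, which encodes a juvenile hormone receptor (3.59), CG13917 (3.58), the corepressor gene sbb (3.50) and CG5953 (3.49). Of these, gce, CG13917 and CG5953 had 8 or 9 regions in genes of 21309 to 24800 bp, and sbb had 28 regions in 79099 bp. The measure rests on 1 list made from both replicates, so it has no error of its own.

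**Figure D4:**
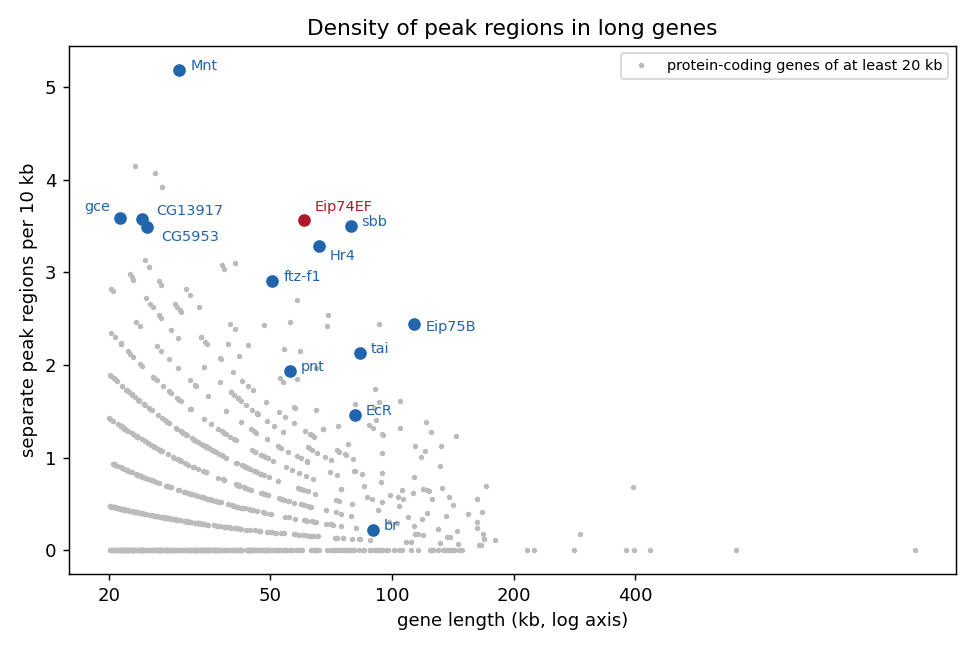
Separate peak regions per 10 kb (vertical axis) against gene length in kb on a log axis (horizontal axis) for protein-coding genes of at least 20 kb (grey), with Eip74EF in red and other named genes in blue. Eip74EF, at 3.57, is above Hr4 and Eip75B and close to sbb, and Mnt is the highest at 5.18.

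Peaks were sparser on both sides of the gene. In the 50 kb further upstream there were 6 regions, or 1.20 per 10 kb, and in the 50 kb beyond the 3′ end there was 1, or 0.20 per 10 kb. The arm 3L as a whole had 0.575 per 10 kb. The next summit upstream was 2348 bp from the E74A start, between the genes Vps60 and anchor, with a signal of 65.7. On the other side the next was 24478 bp from the 3′ end of the gene, with a signal of 91.7. CycT, a cyclin T gene 884 bp beyond the 3′ end, had no peak in its body or upstream 1 kb.

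Among the 7 other ETS family genes, 4 had at least 1 region, beside 28.8% of all protein-coding genes, and 2 had a summit within 500 bp of a start, beside 21.5%. The highest was pnt, a nuclear effector of EGFR signalling, with 11 regions (1.93 per 10 kb), a median signal of 123.4 and a promoter signal of 224.6. aop, a repressor of the same pathway, had 3 regions (1.29 per 10 kb) and none at a start. Ets21C had 1 region, at its starts, with a signal of 159.8, and Ets96B had 1 with 93.4. Ets65A, Ets97D and Ets98B had none. Long genes have more room for a region, and the 7 genes ranged from 2112 bp (Ets97D) to 55937 bp (pnt).

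Of 24 other genes of the ecdysone cascade, 18 had at least 1 region and 15 had a summit within 500 bp of a start, beside the same shares of 28.8% and 21.5%. The 24 genes ranged from 1094 bp (ImpE3) to 113744 bp (Eip75B), and long genes have more room for a region. Of the 1013 protein-coding genes of at least 20 kb, 332 had no region. The ecdysone list had been drawn up with earlier results of these data known. The most regions were at Eip75B (28, or 2.44 per 10 kb), Hr4 (22, 3.28 per 10 kb), tai, a coactivator of the ecdysone receptor (18, 2.13 per 10 kb), ftz-f1, a nuclear receptor of the prepupal stage (15, 2.90 per 10 kb), EcR, the ecdysone receptor gene (12, 1.46 per 10 kb), and Eip78C (10, 2.45 per 10 kb). Median signals of these 6 genes ran from 105.3 at EcR to 172.3 at tai, beside 120.7 at Eip74EF. Their highest peaks were 572.2 at Eip75B, 775.1 at Hr4, 695.3 at tai, 385.6 at ftz-f1, 224.9 at EcR and 248.5 at Eip78C. With 286.6, the highest peak of Eip74EF was below those of the first 4 of these and above those of EcR and Eip78C. ImpE1, ImpE2 and ImpE3, ecdysone-inducible genes of imaginal discs, had no region. Among the longer genes of the list, Blimp-1 (21112 bp) also had none. Hr38 had 1 region in 31127 bp (0.31 per 10 kb), and br had 2 in 89738 bp (0.22 per 10 kb). All of these were below the median of 0.416 for genes of at least 20 kb.

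The 11 Eig71E late genes, Eig71Ea to Eig71Ek, which E74A is known to activate, had no region in the body or 1 kb upstream. These are short genes of 467 to 1539 bp, and of the 4595 protein-coding genes in that range of length 13.4% had a region, beside 28.8% of all. The genes of the cluster lie close together, so they are not independent of each other.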

How the data were processed

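The values were the authors' deposited peak lists in narrowPeak layout on dm6, per the labels, with 2 replicates and 8 lists. Each replicate had a ranked list and a list thresholded by IDR, and the series had 2 of each kind. Peak signal was used as the authors deposited it, with its scale not given. The −log10 global IDR was also the authors' deposited value. The sources used here name no aligner and no peak caller. The depth of the libraries is unknown, so no counting error could be set. The conservative thresholded list of the series, in which global IDR was at most 0.01, was the main list.

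Genes and transcripts came from Ensembl release 115 and sequence from the RefSeq copy of Release 6. A peak belonged to a gene where its summit lay in the body or 1 kb upstream, and to a start where it lay within 500 bp. Peaks overlapping by at least 1 bp formed a region. Replicate signals were those of the nearest summit within 200 bp in each replicate's ranked list, so neighbouring peaks could share a value. Motifs were counted on both strands within 50 bp of the summit, which gave windows of 101 bp, after the counting was checked on simulated data. Python 3.11.15 with pandas 2.3.3, numpy 2.4.6 and scipy 1.17.1 was used.

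The members and lists were chosen with earlier results of these data known. Named genes were the ETS family, up to 6 genes of the ecdysone list with the most regions and up to 3 with none, the nearest genes on each side, and 2 genes above and 2 below in regions per 10 kb. Blimp-1, Hr38 and br were named in addition, to show long genes of the ecdysone list with few regions or none. Of the ecdysone list, 3 names were matched through synonyms. No test was made, since 1 group of 2 replicates allows none and the peak list itself chose the members. The alternatives were the other thresholded list, each replicate's own list, a stricter IDR limit, and other windows, overlaps and matching distances. The position by density under other lists was added after seeing the data.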

Additional observations from a re-analysis of the deposited data

How the results depend on the processing

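The number of peaks at Eip74EF was 24, and it fell to 13 at a global IDR of at most 0.001. With 1 replicate's own list in place of both, it was 16 to 20. Separate regions, 22 in the main list, numbered 13 at that stricter limit and 13 to 19 in the replicates' lists, with the 13 coming from replicate 1's list. Of the 3 start sites with a summit, 1 was left at the stricter limit and 1 to 2 in the replicates' lists, 1 being in replicate 1's list. The median signal of 120.7 became 147.6 at the stricter limit and 51.8 to 82.4 in the replicates' lists, whose signal scales are not stated. The stricter limit was set on global IDR and not on signal. It left out peak 13, with a signal of 147.7, and kept peak 18, with 112.9. The cause of the differences between the replicates' lists was not tested. The other thresholded list gave 25 peaks, 22 regions, 3 start sites and a median of 119.96. Other gene borders, start windows, overlaps and matching distances changed these results and the replicate counts by less than 1.5 times. The position by regions per 10 kb, 7 in the main list, was 8 in the other thresholded list, 11 to 12 in the replicates' lists and 15 at the stricter limit, an alternative chosen after seeing the data. In windows of 100 bp each side, which are longer by construction, TATAAA was at 5 peaks in place of 1 (29.1% of all peaks), CGATA at 4 in place of 1 (21.8%), GCCAT at 6 in place of 2 (26.6%), AAAATA at 9 in place of 5 (50.2%), CAGCTG at 4 in place of 2 (8.75%) and AGGTCA at 2 in place of 1 (3.61%). No paired analysis was possible because there was 1 group. With no reads, no input and no untagged sample analysed here, the background at the locus could not be measured.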

Other observations

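A few peaks of the locus appeared only outside the conservative list. The other thresholded list of the series and the list of replicate 1 each held a peak between peaks 19 and 20, with summits 1346 bp and 1259 bp upstream of the RB start and signals of 77.6 and 37.5. In the ranked list of the series this candidate had a global IDR of 0.0385. Intron 1 held a candidate 2393 bp downstream of the E74A start, in the stretch between peaks 1 and 2, with a signal of 65.7 and a global IDR of 0.586.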
